A study of Mus musculus with 18 samples.

Results

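Platelet-derived growth factor (PDGF) signalling and the pericytes that depend on it were followed through the RNA of mouse embryonic lungs in 3 mutant experiments. The 7 genes described were chosen by name from the 23418 gene names in the deposited tables. They are the ligand genes *Pdgfa*, *Pdgfb* and *Pdgfc*, the receptor genes *Pdgfra* and *Pdgfrb*, and the pericyte genes *Cspg4* and *Rgs5*. All 7 are listed in each of the 3 tables, and all 7 passed the filter on low values in each.

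Whole lungs were sequenced in bulk (RNA-Seq) in 18 libraries, 3 from mutant and 3 from control lungs per experiment. In the *Vangl1/2* experiment, lungs with the genotype *Vangl1-/-; Vangl2-/-* were compared with *Vangl1-/-* lungs at E12.5 (embryonic day, in days post coitum), so that all 6 libraries lacked intact *Vangl1* and the groups differed in *Vangl2*. *Vangl1* was disrupted by a gene trap, and the *Vangl2* null allele was made from a floxed allele with *Sox2-Cre*, which acts throughout the embryo. *Vangl1* and *Vangl2* encode membrane proteins of planar cell polarity that act downstream of the ligand Wnt5a. In the *Dermo1Cre* experiment, *Wnt5a f/f; Dermo1Cre* lungs were compared with *Wnt5a f/+; Dermo1Cre* lungs at E12.5; *Dermo1Cre* acts in the mesenchyme. In the *Sox9Cre* experiment, *Wnt5a f/f; Sox9Cre* lungs were compared with *Wnt5a f/+; Sox9Cre* lungs at E13.5; *Sox9Cre* acts in the lung epithelium. The controls of both *Wnt5a* experiments carried the Cre and 1 floxed *Wnt5a* allele. Whether a library held 1 embryo or several, and whether the libraries of a group came from separate litters, is not given in the sources used here, so p-values measure only the spread between these libraries.

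PDGF ligands are secreted dimers that bind receptor tyrosine kinases on neighbouring cells. PDGF-A, made by the lung epithelium, signals through PDGFRα on mesenchymal cells and is known for its need in the later formation of alveolar myofibroblasts. PDGF-B is made mainly by endothelial cells and signals through PDGFRβ on pericytes, the mural cells wrapped around capillaries, which it recruits to growing vessels. PDGF-C is secreted in a latent form and, once cut, acts through PDGFRα. *Cspg4* encodes the proteoglycan NG2 on the surface of pericytes and other progenitors, and *Rgs5* encodes a regulator of G-protein signalling that is abundant in pericytes. *Pdgfra* and *Pdgfrb* are also read widely in embryonic mesenchyme, so none of the 7 genes marks a single cell type in a whole lung at these stages.

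The start regions of 3 members are shown because *Rgs5* and *Pdgfra* had the smallest unadjusted p-values among the members of the *Vangl1/2* experiment, and *Cspg4* had the second largest fold change there. Each region runs from 250 bases before to 50 bases after the gene's start, from RefSeq on the build GRCm38.p6, 5′ to 3′ on the plus strand, which is the coding strand of all 3. Capitals mark matches on either strand to the GC box GGGCGG, the RBPJ core TGGGAA, the TATA box TATAAA and the CArG box bound by SRF.
Rgs5, chr1:169655251-169655550: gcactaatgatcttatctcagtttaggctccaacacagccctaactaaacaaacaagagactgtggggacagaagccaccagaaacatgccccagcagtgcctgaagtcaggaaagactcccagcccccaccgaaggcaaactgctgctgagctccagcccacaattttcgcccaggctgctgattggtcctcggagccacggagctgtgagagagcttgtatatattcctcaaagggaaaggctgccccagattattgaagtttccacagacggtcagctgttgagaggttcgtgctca
Pdgfra, chr5:75152001-75152300: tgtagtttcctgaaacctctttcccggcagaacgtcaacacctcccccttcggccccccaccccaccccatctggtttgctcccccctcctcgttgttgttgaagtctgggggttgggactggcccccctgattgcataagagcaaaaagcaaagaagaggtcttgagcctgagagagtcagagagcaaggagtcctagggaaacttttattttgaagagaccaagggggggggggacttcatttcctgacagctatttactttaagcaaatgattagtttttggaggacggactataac
Cspg4, chr9:56864854-56865153: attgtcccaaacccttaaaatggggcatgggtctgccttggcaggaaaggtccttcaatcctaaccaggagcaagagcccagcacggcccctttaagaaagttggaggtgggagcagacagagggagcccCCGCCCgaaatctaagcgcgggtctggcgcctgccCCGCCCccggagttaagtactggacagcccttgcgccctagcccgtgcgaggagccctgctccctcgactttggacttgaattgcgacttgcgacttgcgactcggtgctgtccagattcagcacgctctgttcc
In these windows *Rgs5* and *Pdgfra* hold none of the 4 motifs, and *Cspg4* holds 2 GC boxes. A GC box is found in 35.7% of the 32851 promoters of this length that were searched, an RBPJ core in 25.6%, a TATA box in 13.6% and a CArG box in 1.63%. The GC content is 52.3% for *Rgs5*, 51% for *Pdgfra* and 60% for *Cspg4*, against a median of 52.7% over all promoters. In the GENCODE annotation of GRCm38 (release M21), *Rgs5* lies at chr1:169655501-169695813 on the plus strand, *Pdgfra* at chr5:75152292-75198215 on the plus strand and *Cspg4* at chr9:56865033-56899870 on the plus strand. *Pdgfa* (chr5:138976014-138997370) and *Pdgfb* (chr15:79995874-80014977) lie on the minus strand and *Pdgfc* (chr3:81036416-81214040) on the plus strand. Exons of *Pdgfa*, *Pdgfc* and *Pdgfra* overlap an annotated gene on the opposite strand, and *Pdgfra* also holds a microRNA gene on its own strand. Whether reads were counted by strand is not given in the sources used here. These 3 values may therefore include reads of the overlapping genes, or lack reads left out for overlapping another gene.

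Between 15945393 and 19814346 reads per library lay on genes. Of the targeted genes, *Vangl2* had 277, 406 and 334 normalized counts in the *Vangl1/2* controls and 86.5, 79.8 and 89.6 in the mutants, and fell by 1.96 on the log2 scale (adjusted p = 0.0318, limma). *Vangl1*, disrupted in all 6 libraries, had 162, 219 and 113 in the controls and 239, 274 and 242 in the mutants. *Wnt5a* had 472, 430 and 489 in the *Dermo1Cre* controls and 317, 436 and 230 in the mutants, a log2 fold change of -0.55 with 1 mutant library inside the control range (adjusted p = 0.406, limma), and differed by -0.12 in the *Sox9Cre* mutants (adjusted p = 1, limma). All 18 epithelial and all 15 mesenchymal fibroblast markers passed the filter on low values in each table, and 21 or 22 of the 25 pericyte markers found there did. The pericyte list held 27 names, some of them older and newer symbols of the same gene. Control replicates 1 and 3 of the *Vangl1/2* experiment stood apart from the other 4 libraries. They lay at -30.1 and -44.7 on a first principal component that held 51.7% of the variance, whereas control replicate 2 lay at 17.0 and the mutants between 15.1 and 21.5. In that experiment the log2 fold change of a gene also rose with its exon length (Spearman correlation across 13437 genes 0.70, against 0.25 in the *Dermo1Cre* and -0.034 in the *Sox9Cre* experiment; genes are not independent replicates). Values are therefore also given after each library's trend on exon length had been removed, and with libraries left out.

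Relative to exon length, the receptors were the most abundant of the 7 genes and *Cspg4* the least. In the *Dermo1Cre* controls, *Pdgfrb* had an RPKM (reads per kb of exon, scaled to the reads on genes of the library) of 33.6 ± 3.21 (SD, n = 3), *Pdgfra* 23.7 ± 0.374, *Pdgfc* 13.2 ± 0.339, *Pdgfb* between 11.9 and 13.1 in the 3 libraries, *Pdgfa* 6.95 ± 0.721, *Rgs5* 5.26 ± 0.639 and *Cspg4* 2.53 ± 0.0621. The order of the means was the same in the controls of the other two experiments. *Pdgfc* and *Pdgfb* overlapped between libraries in the *Dermo1Cre* controls, and the other neighbours in the order did not. In the *Sox9Cre* controls no neighbours overlapped. In the *Vangl1/2* controls *Pdgfrb* (20.1 to 33.2) overlapped with *Pdgfra* (14.4 to 26.0), *Pdgfc* with *Pdgfb*, and *Pdgfa* (4.34 to 5.82) with *Rgs5* (3.23 to 5.44). The *Vangl1/2* mutants were the only group in which *Rgs5*, at an RPKM of 6.87 to 8.27, lay above *Pdgfa*, at 4.26 to 5.14, in all 3 libraries.

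**Figure D1:**
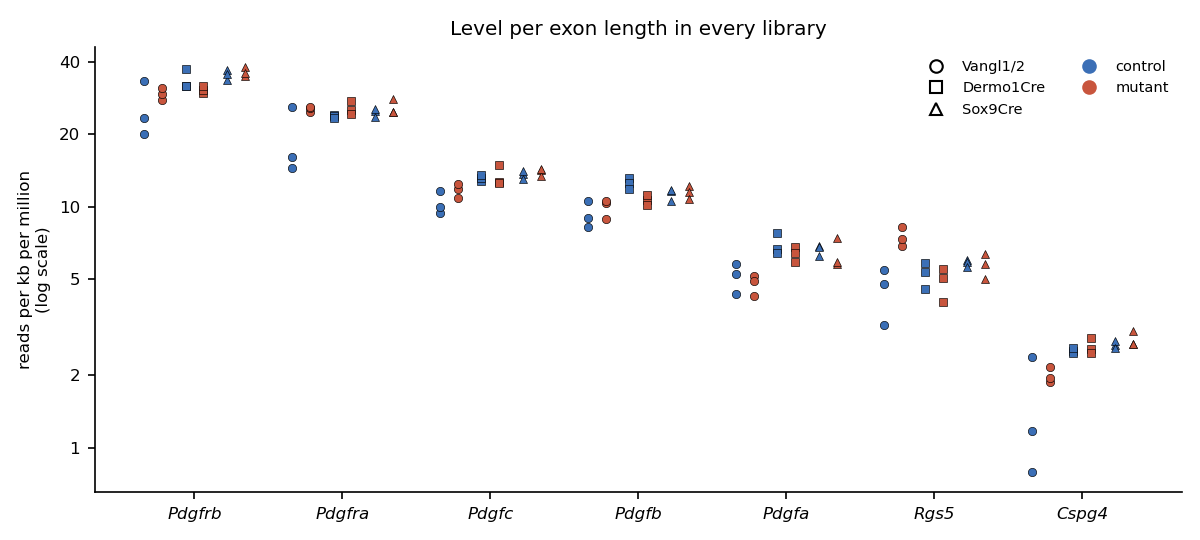
Levels of the 7 genes in RPKM (log scale) in every library; the marker gives the experiment, blue control and red mutant libraries. The receptors *Pdgfrb* and *Pdgfra* are the most abundant and *Cspg4* is the least in each group, and 2 of the 3 *Vangl1/2* controls are low for *Pdgfra* and *Cspg4*.

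In the lungs without *Vangl1* and *Vangl2*, *Rgs5* was higher than in the *Vangl1-/-* controls in every library, by 1.66-fold. *Pdgfra* was higher by 1.36-fold and *Cspg4* by 1.49-fold, all these folds being taken from the mean log2 values. In each of them 1 control library did not lie below the mutants: it lay among them for *Pdgfra* and above them for *Cspg4*. The 95% intervals of the 3 ligand genes and of *Pdgfrb* contained 0. None of the 7 genes passed an adjusted p of 0.05 (limma moderated test, Benjamini-Hochberg over 14303 genes), where 0.00699% of all genes did. At an unadjusted p under 0.05, 2 of the 7 were higher (12% of all genes were) and 0 were lower (8.56% of all genes were). The groups did not overlap for 1 of the 7, *Rgs5*, against 22.3% of all genes. With so large a background, 2 of 7 is no result about these genes as a group. In bulk lungs, fewer cells of a type and less RNA per cell cannot be told apart.

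*Pdgfa*, the epithelial ligand, had 305, 316 and 259 normalized counts in control replicates 1 to 3 and 291, 275 and 235 in the mutants. The groups overlapped, with a log2 fold change of -0.13 (SE 0.14, adjusted p = 0.565, limma). *Pdgfb*, the endothelial ligand, had 522, 577 and 492 in the controls and 503, 577 and 582 in the mutants, a log2 fold change of 0.064 (95% interval -0.20 to 0.32). *Pdgfc*, the latent ligand, had 652, 754 and 710 in the controls and 801, 725 and 822 in the mutants, a log2 fold change of 0.15 (interval -0.088 to 0.39). Only 1 mutant library of *Pdgfc* lay within the control range. None of the 3 intervals reached a change of 1.5-fold in either direction.

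*Pdgfra*, the receptor for PDGF-A and PDGF-C, had 2785, 4205 and 2559 normalized counts in the controls and 4171, 4273 and 4251 in the mutants. The mutants were nearly equal, and control replicate 2 lay among them while the other two controls were low. The log2 fold change was 0.45 (SE 0.17, 95% interval 0.044 to 0.85, adjusted p = 0.235, limma). With the length trend removed it was 0.024, and against control replicate 2 alone 0.0091. *Pdgfrb*, the receptor on pericytes, had 2525, 3355 and 2226 in the controls and 2927, 3047 and 3200 in the mutants. Here control replicate 2 lay above every mutant, and the log2 fold change of 0.20 (interval -0.14 to 0.54) was -0.0017 with the length trend removed.

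Of the pericyte genes, *Cspg4* had 188, 357 and 130 normalized counts in the controls and 292, 301 and 330 in the mutants. Control replicate 2 again lay above every mutant and the other two controls below every mutant. Its log2 fold change was 0.57 (SE 0.32, 95% interval -0.16 to 1.30), 0.18 with the length trend removed and -0.22 against control replicate 2 alone. *Rgs5* had 430, 457 and 297 in the controls and 724, 592 and 628 in the mutants. Every mutant library lay above every control, control replicate 2 included, and the exact permutation p was 0.1 (two-sided, the smallest that 3 libraries against 3 allow). The log2 fold change was 0.73 (SE 0.17, 95% interval 0.33 to 1.14, adjusted p = 0.233, limma), and its unadjusted p ranked 52 among 14303 genes. It was 0.62 with the length trend removed and 0.50 against control replicate 2 alone, and stayed between 0.54 and 0.85 when any 1 library was left out.

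**Figure D2:**
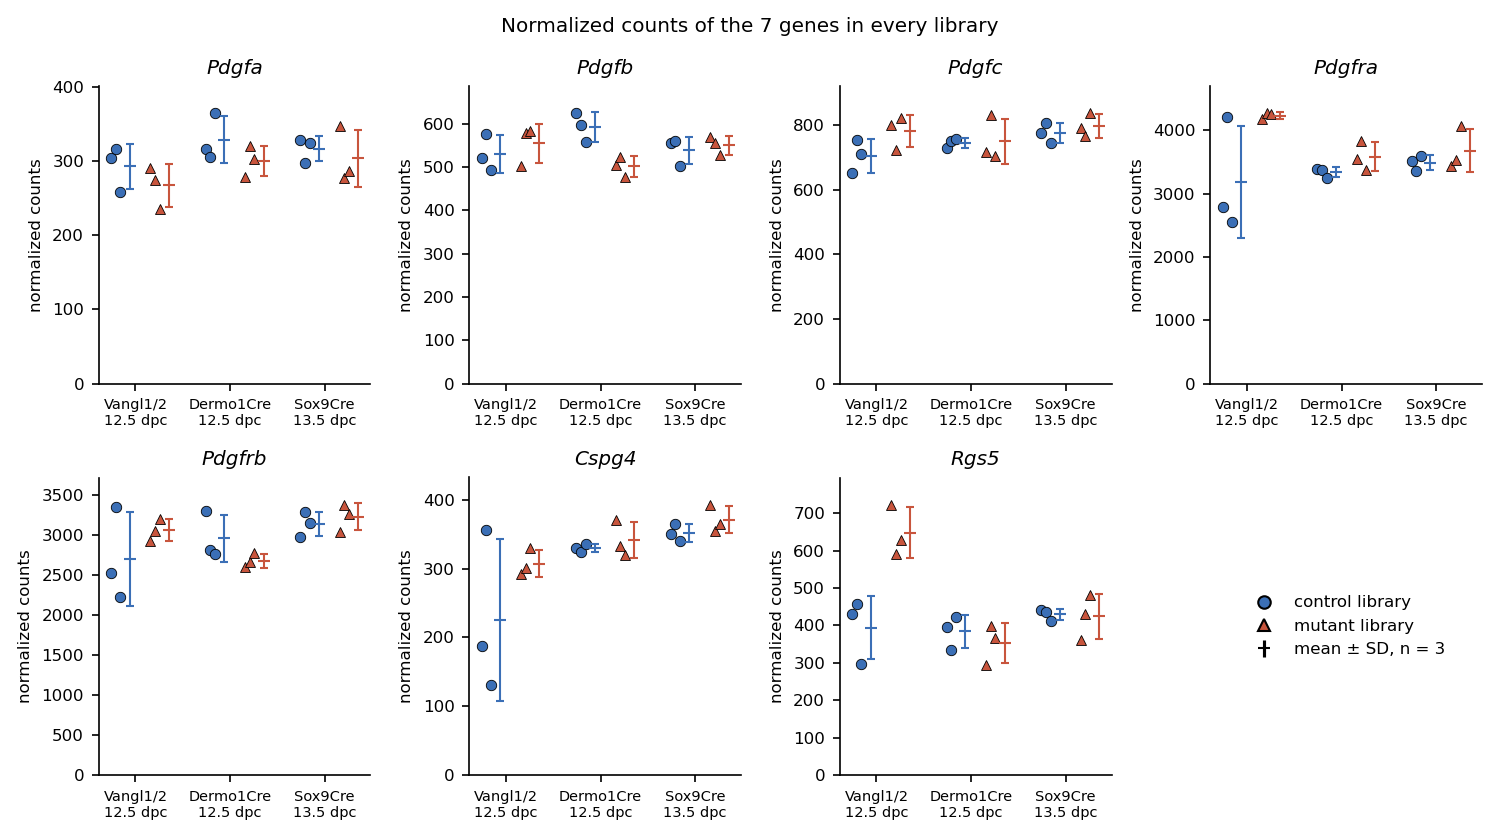
Normalized counts of the 7 genes in each library (linear axes from 0), controls as blue circles and mutants as red triangles, with the mean ± SD of 3 libraries beside them. *Rgs5* in the *Vangl1/2* experiment and *Pdgfb* in the *Dermo1Cre* experiment are the genes whose mutant and control libraries do not overlap; the *Vangl1/2* controls spread widely for *Pdgfra*, *Pdgfrb* and *Cspg4*.

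How many members were called therefore depended on which control libraries were kept. Without control replicate 2, 4 of the 7 genes had an adjusted p under 0.05 (*Pdgfra* at a log2 fold change of 0.66, *Pdgfrb* at 0.37, *Cspg4* at 0.97 and *Rgs5* at 0.85), and so did 6183 of the 14303 genes. Without control replicates 1 and 3 none was called at an adjusted p, and *Rgs5* was the one member at an unadjusted p under 0.05, assuming that the lone control varies like the mutants (4.67% of all genes were at that p). The summed counts of the 15 mesenchymal fibroblast markers were, like the receptors, highest among the controls in replicate 2. They were 87628, 142755 and 69024 in control replicates 1 to 3, and 105441 to 133791 in the mutants. Control replicate 2 was thus the highest of the 6 for this sum, for *Pdgfrb* and for *Cspg4*. The single markers were split. Of the 15, 2 were higher and 2 lower at an unadjusted p under 0.05, against 12% and 8.56% of all genes. The part that the makeup of these libraries or their exon-length trend has in the receptor values was not tested.

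**Figure D3:**
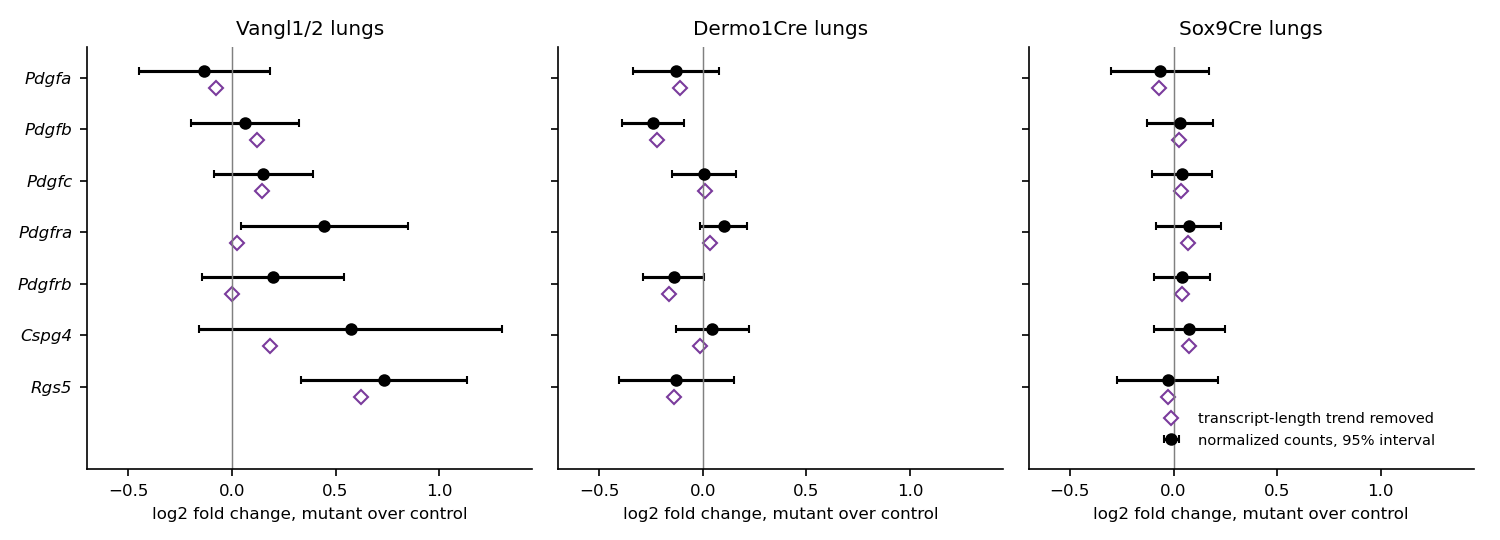
Log2 fold change of each gene, mutant over control, in the 3 experiments. Black points with bars are the estimate and its 95% interval on normalized counts, and open diamonds the estimate with each library's exon-length trend removed, which moves *Pdgfra* from 0.45 to 0.024 and *Rgs5* from 0.73 to 0.62 in the *Vangl1/2* lungs.

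*Rgs5* lies on the same chromosome as *Vangl2*, the gene that separates the groups, with 2.37 Mb between their starts. Its nearest neighbour *Rgs4*, which encodes another regulator of G-protein signalling and starts 0.0921 Mb away, had 472, 321 and 228 normalized counts in the controls and 530, 642 and 591 in the mutants. That was a log2 fold change of 0.85 (SE 0.24), and 0.90 with the length trend removed. *Hsd17b7*, a gene of sterol synthesis 0.314 Mb away, had 532, 516 and 414 in the controls and 796, 679 and 846 in the mutants, a log2 fold change of 0.67 (SE 0.14) and 0.51 with the length trend removed. Neither gene's groups overlapped. Of the 10 other tested genes that start within 1 Mb of *Rgs5*, 4 were higher (*Rgs4*, *Hsd17b7*, *Ddr2* and *Uhmk1*) and 1 was lower (3110045C21Rik) at an unadjusted p under 0.05. With the length trend removed, 2 were higher and 0 lower. In the *Dermo1Cre* and *Sox9Cre* lungs 0 of these 10 genes reached that p in either direction. Of all genes, 5.42% were higher and 4.76% lower at that p in the *Dermo1Cre* lungs, and 1.08% and 2.81% in the *Sox9Cre* lungs. Within 5 Mb of *Rgs5* the *Vangl1/2* counts were 12 higher and 10 lower of 78 genes. Within 1 Mb of *Vangl2* itself, 1 of 35 genes was higher and 6 were lower, and with the length trend removed 0 were higher and 8 lower. Over all 13435 genes with a position, 1620 were higher and 1136 lower in the *Vangl1/2* lungs, and 583 and 687 with the length trend removed. The windows were chosen after the values were seen. Since the groups were defined by their *Vangl2* genotype, an effect of losing *Vangl2* and a difference carried by the linked stretch of the chromosome cannot be told apart for *Rgs5*.

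**Figure D4:**
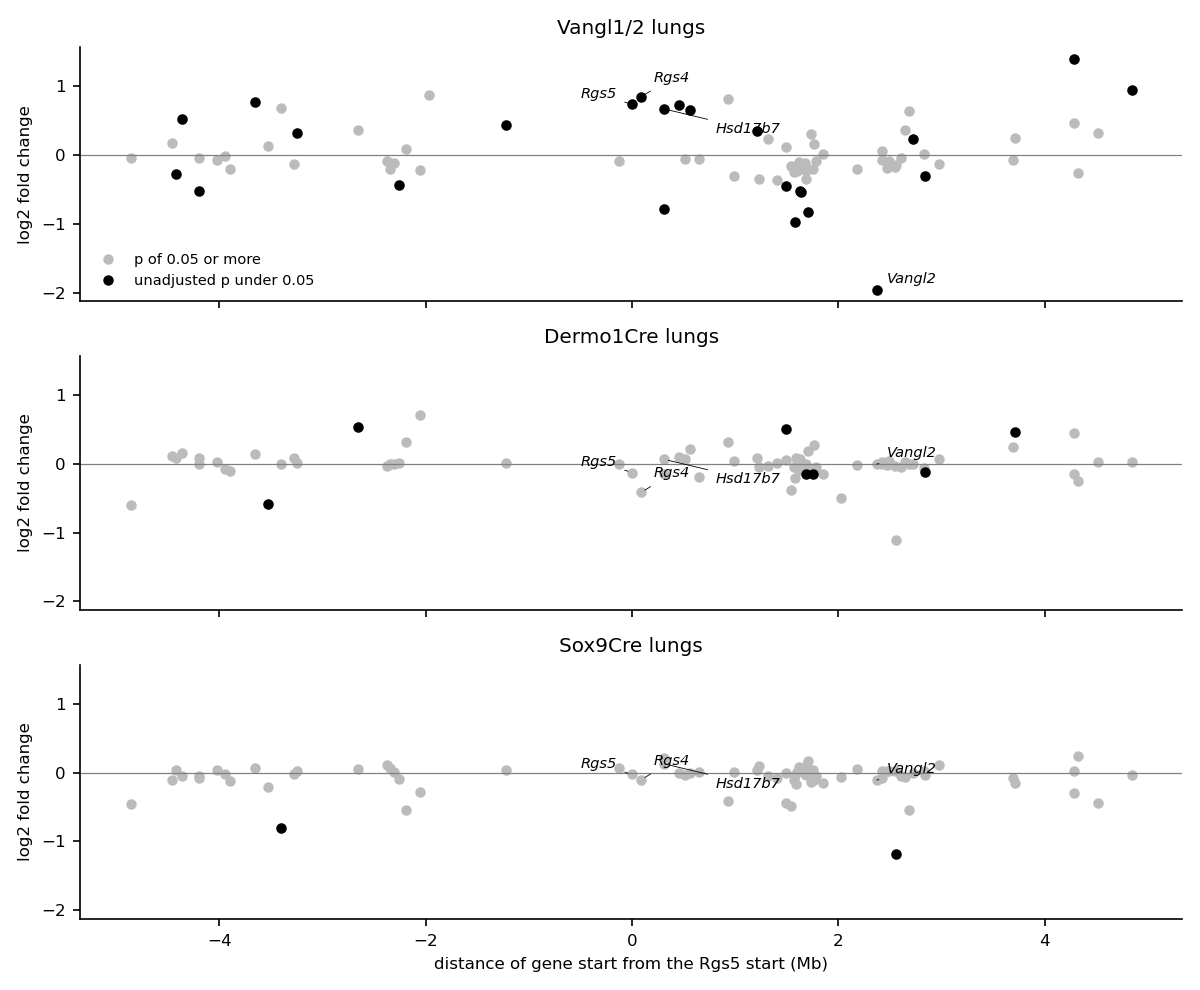
Log2 fold change (mutant over control) of tested genes against the distance of their start from the start of *Rgs5*, within 5 Mb, in each experiment; black points have an unadjusted p under 0.05. In the *Vangl1/2* lungs *Rgs5*, *Rgs4* and *Hsd17b7* lie together at 0.67 to 0.85 while *Vangl2* lies at -1.96, and in the other two experiments *Rgs5*, *Rgs4* and *Hsd17b7* have unadjusted p-values over 0.05.

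Other genes of PDGF signalling were described by a list of 52 genes (processing enzymes, co-receptors, adaptors, kinases, phosphatases and early target genes), of which 51 were tested. In the *Vangl1/2* lungs 13 were higher and 0 lower at an unadjusted p under 0.05, with a median log2 fold change of 0.093 against -0.0093 over all genes tested, of which 12% were higher and 8.56% lower. With the length trend removed, 3 were higher and 0 lower, where 4.35% of all genes were higher and 5.12% lower. The smallest p-values were those of *Ptprj*, a receptor phosphatase that acts on PDGFRβ (log2 fold change 0.66), *Sos1*, the exchange factor that activates Ras (0.64), and *Pik3r1*, the regulatory subunit of PI3-kinase (0.51). The groups did not overlap for any of the 3, and with the length trend removed the values were 0.26, 0.23 and 0.16. *Pdgfd*, the other ligand of PDGFRβ, had 43.4, 55.0 and 34.7 normalized counts in the controls and 55.4, 94.6 and 51.2 in the mutants, a log2 fold change of 0.56 (SE 0.29, adjusted p = 0.287, limma). *Pdgfrl*, which encodes a secreted receptor-like protein, differed by -0.097.

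Of 16 genes that signal between vessel and mural cells, 4 were higher and 0 lower (median 0.12), and with the length trend removed 1 was higher and 2 were lower, to be read against the same shares of all genes. *Notch3*, the Notch receptor of mural cells, had 2038, 2966 and 1484 normalized counts in the controls and 3154, 3052 and 2981 in the mutants, a log2 fold change of 0.56 that was 0.18 with the length trend removed. *Tgfbr1*, a TGF-β receptor, was higher by 0.32 (0.041 with the trend removed) and *Ednra*, an endothelin receptor, by 0.28 (0.27 with the trend removed). Of the 21 pericyte markers tested, 3 were higher and 0 lower, with a median of -0.040. They were *Gucy1a3*, a subunit of the nitric oxide receptor (0.37), *Rgs4* and *Notch3*. *Kcnj8*, a potassium channel of pericytes, had 145, 159 and 139 in the controls and 80.5, 144 and 110 in the mutants, a log2 fold change of -0.44 in the opposite direction to *Rgs5* (SE 0.22, adjusted p = 0.273, limma). *Abcc9*, its partner subunit, had 60.9, 264 and 57.8 in the controls and 83.5, 126 and 136 in the mutants. *Rgs5* was thus higher in lungs in which the median pericyte marker was not. The summed counts of the pericyte markers were 13748 to 16604 in the controls and 16247 to 17789 in the mutants. These sums overlapped, with control replicates 1 and 3 below every mutant. With the length trend removed 1 pericyte marker was higher and 1 lower, among those with a known exon length. *Gucy1a3* had no exon length under that name and so no value with the trend removed. Of 14 smooth muscle markers 2 were higher and 5 lower, and of 18 endothelial markers 2 were higher and 2 lower. Of 6 mesothelial and 13 neuron markers, 3 each were higher and 0 lower. Of 10 macrophage markers 0 were higher and 4 lower, and with the length trend removed 0 were higher and 1 was lower. Of 8 cartilage markers 2 were higher and 0 lower.

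In lungs with *Wnt5a* targeted in the mesenchyme, *Pdgfb* was lower than in the controls in every library, at 0.847 of the control level, and no other member separated the groups. *Pdgfrb* was lower and *Pdgfra* higher in the mean, with 95% intervals that contained 0. None of the 7 genes passed an adjusted p of 0.05 (limma, 14277 genes), against 0.014% of all genes. At an unadjusted p under 0.05, 1 of the 7 was lower (4.76% of all genes were) and 0 were higher (5.42% of all genes were). The groups did not overlap for 1 of the 7, against 15.6% of all genes.

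*Pdgfb* had 624, 596 and 557 normalized counts in the *Dermo1Cre* controls and 504, 524 and 476 in the mutants. Every mutant lay below every control, the log2 fold change was -0.24 (SE 0.067, 95% interval -0.39 to -0.089, adjusted p = 0.324, limma), and the exact permutation p was 0.1, again the smallest possible. It was -0.22 with the length trend removed and between -0.28 and -0.20 when any 1 library was left out. The other two ligands did not separate the groups. *Pdgfa* had 317, 305 and 365 in the controls and 278, 320 and 303 in the mutants, a log2 fold change of -0.13 (interval -0.34 to 0.079). *Pdgfc* had 730, 752 and 759 in the controls and 718, 832 and 704 in the mutants, a log2 fold change of 0.0047 (interval -0.15 to 0.16).

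*Pdgfrb*, which encodes the receptor of PDGF-B, had 3299, 2817 and 2769 normalized counts in the controls and 2602, 2664 and 2772 in the mutants. Mutant replicate 3 lay just above control replicate 3, and the log2 fold change was -0.14 (SE 0.065, 95% interval -0.29 to 0.0058). With the length trend removed it was -0.16 and its unadjusted p fell under 0.05, as it also did in DESeq2 on the recovered reads. With any 1 library left out, it lay between -0.19 and -0.061. The smallest change was without control replicate 1, the highest control (unadjusted p = 0.25, limma). Without control replicate 2 or 3 the unadjusted p was under 0.05, and without mutant replicate 1 it was 0.15 (limma). *Pdgfra* had 3387, 3379 and 3251 in the controls and 3539, 3833 and 3377 in the mutants, a log2 fold change of 0.10 (interval -0.013 to 0.21). *Cspg4* had 331, 324 and 336 in the controls and 371, 332 and 321 in the mutants, a log2 fold change of 0.045. *Rgs5* had 395, 335 and 422 in the controls and 293, 399 and 365 in the mutants, with overlapping groups and a log2 fold change of -0.13 (interval -0.41 to 0.15).

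In the *Dermo1Cre* lungs 3 of 51 PDGF signalling genes were higher and 4 lower (median 0.0029). *Srf*, the transcription factor that acts on early response and muscle genes, had 2192, 2304 and 2231 normalized counts in the controls and 1827, 1916 and 2149 in the mutants (log2 fold change -0.19). *Furin*, a protease that matures PDGF precursors, had a log2 fold change of -0.17 and *Map2k2*, a kinase of the MAP kinase cascade, one of -0.15, both with groups that did not overlap. *Pdgfd* differed by -0.037 and *Pdgfrl* by -0.00092. Of the 16 vessel to mural cell genes 0 were higher and 3 lower. They were *Tgfb1* at -0.21, *Edn1*, the endothelial peptide endothelin, at -0.45 and *Eng*, an endothelial TGF-β co-receptor, at -0.13. *Notch3* differed by -0.045.

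Among the 21 pericyte markers tested in the *Dermo1Cre* lungs, 0 were higher and 3 lower, with a median of -0.16 against 0.00071 over all genes tested. *Kcnj8* had 156, 160 and 183 normalized counts in the controls and 120, 113 and 118 in the mutants, a log2 fold change of -0.50 (SE 0.11, adjusted p = 0.198, limma). *Cox4i2*, a subunit of cytochrome oxidase found in pericytes, had 111, 124 and 92.1 in the controls and 76.6, 65.5 and 80.9 in the mutants, a log2 fold change of -0.54. Both genes were below the controls in every mutant library, whereas *Cspg4*, *Rgs5* and *Abcc9* (log2 fold change -0.19) overlapped. Markers of other cell types moved in the same libraries. Of 14 smooth muscle markers 10 were lower and 0 higher, with summed counts of 24468 to 31317 in the controls and 19036 to 25035 in the mutants. Of 18 endothelial markers 3 were lower and 0 higher, with sums of 22312 to 23212 in the controls and 21160 to 22261 in the mutants. Of 15 mesenchymal fibroblast markers 4 were lower and 0 higher, with sums of 111563 to 129593 in the controls and 102157 to 113389 in the mutants. Of 18 epithelial markers 8 were lower, and of 13 neuron markers 11 were higher. Of 8 glia and neural crest markers 3 were higher and 0 lower. The groups did not overlap for the endothelial sum, nor for the sums of the epithelial markers (27934 to 29506 in the controls, 26580 to 26939 in the mutants), the pericyte markers (15504 to 16802 and 15126 to 15436) and the neuron markers (1936 to 2331 and 2947 to 4597). No marker of these lists was listed at 0 in all libraries. Their part in the lower *Pdgfb*, *Kcnj8* and *Cox4i2* was not tested.

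In lungs with *Wnt5a* targeted in the epithelium, a day later, the 95% interval of the difference between mutants and controls contained 0 for all 7 genes, and every gene's groups overlapped. The log2 fold changes lay between -0.066 (*Pdgfa*) and 0.076 (*Cspg4*), and adjusted p-values were 1 for all 7 (limma, 14293 genes). At an unadjusted p under 0.05, 0 were higher (1.08% of all genes were) and 0 lower (2.81% of all genes were). Groups that do not overlap were found for 0 of the 7, against 8.78% of all genes. By the adjusted p, 0 genes of the whole table passed in limma and in edgeR, and 9 in DESeq2, so that 0% of all genes is the background here; 557 genes had an unadjusted p under 0.05 in limma.

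*Pdgfa* had 328, 298 and 324 normalized counts in the *Sox9Cre* controls and 347, 277 and 287 in the mutants. *Pdgfb* had 554, 560 and 503 in the controls and 570, 554 and 527 in the mutants. *Pdgfc* had 778, 808 and 744 in the controls and 792, 766 and 839 in the mutants. The ligands' 95% intervals ran from -0.30 to 0.17, from -0.13 to 0.19 and from -0.10 to 0.18 on the log2 scale. *Pdgfra* had 3522, 3357 and 3594 in the controls and 3443, 3534 and 4061 in the mutants, a log2 fold change of 0.072 (interval -0.085 to 0.23). *Pdgfrb* had 2981, 3285 and 3155 in the controls and 3043, 3382 and 3269 in the mutants, a log2 fold change of 0.041 (interval -0.094 to 0.18). Both receptors overlapped between the groups. *Cspg4* had 350, 365 and 340 in the controls and 393, 355 and 365 in the mutants. *Rgs5* had 441, 436 and 413 in the controls and 361, 429 and 483 in the mutants, a log2 fold change of -0.028 (interval -0.27 to 0.21). The differences between experiments were not tested.

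Some other genes of the *Sox9Cre* lungs had unadjusted p-values under 0.05. Of 51 PDGF signalling genes 0 were higher and 2 lower. *Fos*, an early target gene of growth factor signalling, had 35.7, 27.9 and 31.9 normalized counts in the controls and 12.7, 16.1 and 15.4 in the mutants, a log2 fold change of -1.06 (SE 0.25, adjusted p = 1, limma). *Pdgfd* differed by -0.34 and *Pdgfrl* by -0.046. Of the 16 vessel to mural cell genes 0 were higher and 2 lower. *Angpt2*, an endothelial ligand of the receptor Tie2, had 196, 163 and 172 in the controls and 131, 108 and 129 in the mutants (log2 fold change -0.53), and *S1pr1*, a sphingosine phosphate receptor of endothelial cells, had 511, 487 and 527 in the controls and 433, 412 and 415 in the mutants (-0.27). Of the 22 pericyte markers tested 1 was higher and 4 were lower. The higher was *Foxf2*, a transcription factor of mural cells (0.16), and the lower included *Anpep*, an aminopeptidase (-0.83), *Tbx18*, a transcription factor of mural and mesothelial cells (-1.02), and *Abcc9* (-0.53). *Notch3* differed by 0.072 and *Kcnj8* by -0.18. In the same libraries 4 of 7 mesothelial markers were lower, with sums of 3667 to 4320 in the controls and 2919 to 3639 in the mutants. Of 17 cardiomyocyte markers 14 were lower, with sums of 6023 to 20746 in the controls and 1135 to 6732 in the mutants. Of 18 endothelial markers 0 were higher and 1 was lower. Their sums were 22508 to 23071 in the controls and 21930 to 22356 in the mutants and did not overlap. The part of these cells in the lower *Angpt2*, *S1pr1*, *Tbx18*, *Anpep* and *Abcc9* was not tested.

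Ratios within a library do not depend on its scaling. Over the 21 pairs of the 7 genes, the ratio did not overlap between mutants and controls in 7 pairs in the *Vangl1/2* lungs, in 5 in the *Dermo1Cre* lungs and in 0 in the *Sox9Cre* lungs. The pairs share their genes: each of the 7 held *Rgs5* or *Pdgfra*, and each of the 5 held *Pdgfb* or *Pdgfra*. No share over all other pairs of genes was computed, so these counts are no result about the members. The ratio of *Pdgfra* to *Pdgfrb* was 1.10, 1.25 and 1.15 in the *Vangl1/2* controls and 1.43, 1.40 and 1.33 in the mutants, and it was 1.03, 1.20 and 1.17 in the *Dermo1Cre* controls and 1.36, 1.44 and 1.22 in the mutants. It was thus higher in every mutant of both experiments, with an exact permutation p of 0.1 in each. In the *Sox9Cre* lungs it overlapped, at 1.18, 1.02 and 1.14 in the controls and 1.13, 1.04 and 1.24 in the mutants. A ratio to *Pdgfrb* that was higher in every mutant library was found for 7.95% of all genes in the *Vangl1/2* and for 24.8% in the *Dermo1Cre* experiment, and the pair was chosen after its values were seen. On the log2 scale the difference in the ratio was 0.25 in the *Vangl1/2* lungs and 0.24 in the *Dermo1Cre* lungs, and with the length trend removed 0.026 and 0.20. The ratio of *Pdgfrb* to *Rgs5* was 5.88, 7.35 and 7.48 in the *Vangl1/2* controls and 4.04, 5.14 and 5.09 in the mutants. *Pdgfrb* itself was not lower in the mean there (log2 fold change 0.20, against 0.73 for *Rgs5*). The share of 7.95% of all genes applies to this ratio too.

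**Figure D5:**
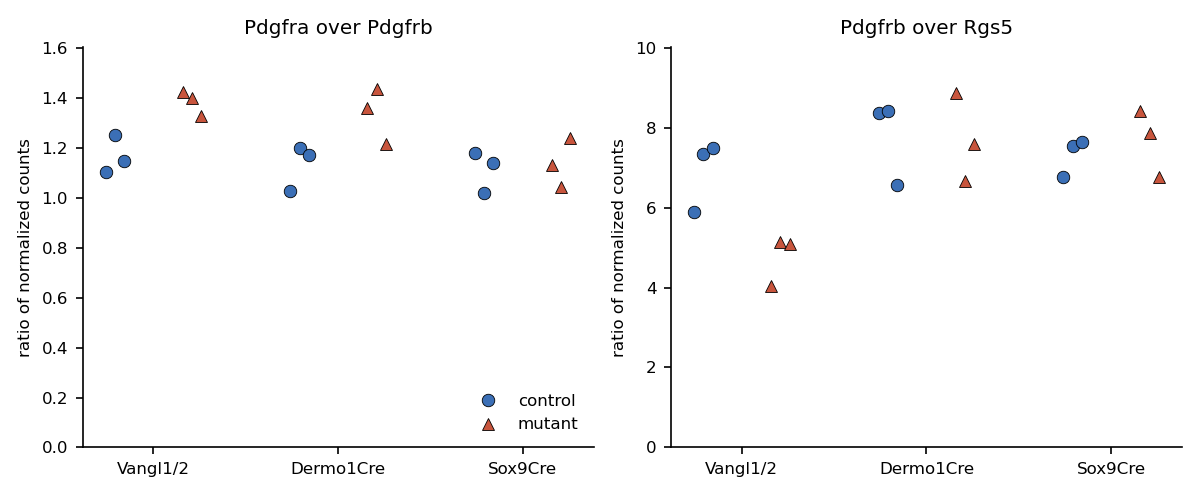
Ratio of normalized counts within each library (axes from 0) of *Pdgfra* over *Pdgfrb* and of *Pdgfrb* over *Rgs5*, controls as blue circles and mutants as red triangles. The first ratio is higher in every mutant of the *Vangl1/2* and *Dermo1Cre* experiments and overlaps in the *Sox9Cre* experiment; the second is lower in every mutant of the *Vangl1/2* experiment only.

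To see which genes varied with each member, the log2 values were centred within each table and correlated over the 18 libraries for 13980 genes. These points share their libraries and the *Vangl1/2* controls that stood apart, and the correlations are given as a description. *Pdgfra* was most like *Fat4*, a large cadherin (Pearson r 0.98), and *Col25a1* (0.97). *Cspg4* was most like *Col27a1*, a fibrillar collagen (0.99), and *Plxna3*, a semaphorin receptor (0.98). *Rgs5* was most like *Tbc1d5* (0.91) and its neighbour *Hsd17b7* (0.90). *Pdgfrb* was closest to *Ttyh3* (0.91) and *Atxn2l* (0.91), *Pdgfa* to *Trafd1* (0.88) and *Tcn2* (0.82), *Pdgfb* to *Hs6st1* (0.84) and *Prdm6* (0.82), and *Pdgfc* to D430019H16Rik (0.86) and *Osbpl6* (0.82). With the length trend removed, the closest gene stayed the same for *Pdgfa* (*Trafd1*) and *Pdgfb* (*Hs6st1*). *Col27a1* stayed among the closest pair for *Cspg4* and *Hsd17b7* for *Rgs5* (0.85), while both names changed for *Pdgfc*, *Pdgfra* and *Pdgfrb*.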

How the data were processed

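RNA of whole embryonic lungs was measured in 18 libraries. Per the labels and the methods, the authors trimmed the reads (Trim Galore), aligned them to mm10 (HISAT2), counted them per gene (featureCounts) and used DESeq2; versions, annotation and strand setting are not given in the sources used here. The authors deposited 1 table per experiment, each listing 23420 genes (23418 names, of which 27 had become dates). The deposited values are a signal: the authors scaled the gene counts of a library by its size factor (0.952 to 1.07), which gave the normalized counts used here. Columns of the authors' own comparison (mean, log2 fold change, p-value) were not used.

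Every value (100%) came out as whole reads (tolerance 0.001 reads, largest deviation 3.7e-05), at 15945393 to 19814346 reads per library. Each table was analysed alone. Genes that reached 10 normalized counts in 3 or more of the 6 libraries were tested on log2(normalized counts + 1) with limma's moderated test and a mean-variance trend (limma 3.58.1, R 4.3.3), adjusted by Benjamini-Hochberg, threshold 0.05. Fold changes are therefore on the log2(value + 1) scale. edgeR 4.0.16 and DESeq2 1.42.0 were run on the recovered reads: they call 1 and 11 genes in the Vangl1/2, 2 and 101 in the Dermo1Cre and 0 and 9 in the Sox9Cre table. Other alternatives changed the pseudocount (0.5 or 8), the filter (none or 50), the scaling (TMM) and the libraries, added a replicate block, or removed each library's lowess trend (span 0.3) on exon length, which GENCODE M21 gave for 92.9% of the names. Figures and motif searches used Python 3.11.15.

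The 7 members and the gene lists were chosen with earlier results of these data known. Some genes, such as *Notch3*, *Eng*, *Tek*, *Des* and *Krt19*, stand in 2 lists, so the counts of different lists are not independent. Genes named beside them are, per list, at most 3 with the smallest unadjusted p under 0.05 and groups that do not overlap, plus *Pdgfd*, *Pdgfrl*, *Notch3*, *Kcnj8* and *Abcc9*, the targeted genes, and the 2 genes most like each member. Genes near *Rgs5* were chosen after their values were seen.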

Additional observations from a re-analysis of the deposited data

How the results depend on the processing

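Of the values for single members under the alternatives that have an adjusted p, 105 in the *Vangl1/2*, 107 in the *Dermo1Cre* and 109 in the *Sox9Cre* lungs kept their direction and their side of the threshold, while 5, 5 and 3 changed sign and 4 in the *Vangl1/2* lungs passed the threshold without control replicate 2. DESeq2 gave no adjusted p for *Pdgfa*, *Pdgfb*, *Pdgfc*, *Cspg4* and *Rgs5* in the *Vangl1/2* lungs, and these 5 values are not counted. Members with an unadjusted p under 0.05 in the *Vangl1/2* lungs numbered 1 in place of 2 (*Rgs5* without *Pdgfra*) in edgeR, with the length trend removed, with the length trend removed and the replicate block, and without control replicates 1 and 3. With 1 library left out, the *Vangl1/2* counts ran from 1 to 4 at an unadjusted p, from 0 to 4 at an adjusted p and from 1 to 5 for groups that do not overlap, the highest without control replicate 2. The share of all genes at an unadjusted p under 0.05 ran from 5.36% to 50.6% over the same settings. In the *Dermo1Cre* lungs the unadjusted count was 2 (*Pdgfb* and *Pdgfrb*) in DESeq2, with the length trend removed and with the length trend removed and the block, and 1 to 2 with 1 library left out; groups did not overlap for 2 members with the trend removed and for 1 to 3 with 1 library left out. In the *Sox9Cre* lungs 0 to 1 members did not overlap with 1 library left out. Signs reversed for *Pdgfrb* at -0.0017 (*Vangl1/2*) and *Cspg4* at -0.011 (*Dermo1Cre*) with the length trend removed, with or without the block; *Pdgfb* at -0.061, *Pdgfrb* at -0.13 and *Cspg4* at -0.22 (*Vangl1/2*) without control replicates 1 and 3; and, with 1 library left out, *Pdgfc* (-0.071 to 0.049) and *Cspg4* (-0.017 to 0.089) in the *Dermo1Cre* and *Pdgfb* (-0.017 to 0.062), *Rgs5* (-0.13 to 0.083) and *Pdgfra* (-0.00078 to 0.12) in the *Sox9Cre* lungs. Over all genes, the adjusted count in the *Vangl1/2* table ran from 0 to 6183 with 1 library left out. The cause of these changes was not tested.

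Libraries with the same replicate number deviated together by correlations of 0.30, 0.049 and 0.013 in the *Vangl1/2*, 0.073, -0.073 and -0.22 in the *Dermo1Cre* and 0.053, 0.13 and -0.12 in the *Sox9Cre* experiment, so the numbers were not taken to pair the samples, and not every sample correlated best with its own number. With the replicate block, 2, 1 and 0 members had an unadjusted p under 0.05 in the 3 experiments, as without it, and 0, 16 and 0 genes of all an adjusted p under 0.05 in place of 1, 2 and 0. The settings named for control replicates 1 and 3 and for the trend with the block were chosen after seeing the data. With 3 libraries a group, the width of the intervals given limits what can be said of small differences.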
